A study of Homo sapiens with 12 samples.

Results

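TRiC, also called CCT, is the chaperonin of the eukaryotic cytosol, and the transcripts of its 8 subunits were followed here: TCP1 (the alpha subunit), CCT2 (beta), CCT3 (gamma), CCT4 (delta), CCT5 (epsilon), CCT6A (zeta), CCT7 (eta) and CCT8 (theta). They were taken by name as the listed subunits of the complex, and each symbol was matched to 1 Ensembl identifier among the 54127 in the count files. All 8 were among the 14501 genes with enough reads to be tested. The cells were C4-2, a prostate cancer line derived from LNCaP, transfected in reverse with 50 nM of an siRNA pool against choline kinase alpha (siCHKA, 6 samples) or with nontargeting siRNA (siNT, 6 samples). Both groups were grown in RPMI with serum, and RNA came, per the labels, from sorted cells. No genotype was altered, a single line was used, and no time after transfection is given in the labels. The comparison asks how the subunit transcripts stood after loss of CHKA, and whether they moved together.

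Each ring of TRiC holds 1 copy of every subunit, and the complex is a pair of such rings stacked back to back. Unfolded proteins enter the central chamber, and ATP binding and hydrolysis close a lid built into the subunits, inside which the protein folds. Actin and tubulin are its best known clients, together with proteins of the WD40 repeat class such as CDC20. Prefoldin hands nascent actin and tubulin to TRiC, phosducin-like proteins act on it as cochaperones, and tubulin folding cofactors take over the released tubulins. Since the subunits differ in sequence and hold fixed places in the ring, a complete complex needs all 8 of them.

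The subunit genes lie apart in the genome. In GRCh38 (GENCODE release 44), TCP1 (ENSG00000120438) lies at chr6:159778498-159789703 on the minus strand, CCT2 (ENSG00000166226) at chr12:69585426-69601570 on the plus strand, CCT3 (ENSG00000163468) at chr1:156308968-156367873 on the minus strand and CCT4 (ENSG00000115484) at chr2:61868085-61888671 on the minus strand. CCT5 (ENSG00000150753) lies at chr5:10249929-10266389 on the plus strand, CCT6A (ENSG00000146731) at chr7:56051685-56063989 on the plus strand, CCT7 (ENSG00000135624) at chr2:73233420-73253021 on the plus strand and CCT8 (ENSG00000156261) at chr21:29055805-29073797 on the minus strand. Counts were made by the authors on GRCh37, so these positions give the location of a gene and not of a read.

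The stretches directly upstream of 3 subunit genes are shown because these genes differed most in what was measured: TCP1 had the lowest fold change, CCT3 the highest level and CCT4 the fold change nearest to 0. All were taken from RefSeq (GRCh38.p14), minus strand, and are written from 5' to 3' in the direction of the gene. Capitals mark the letters of a searched motif on either strand. The stretches are chr6:159789704-159789841 for TCP1 (138 bases), chr1:156338312-156338532 for CCT3 (221 bases) and chr2:61888672-61888906 for CCT4 (235 bases), and each leaves out the annotated exons of its gene. The CCT3 stretch lies within the intron of a longer transcript of that gene.
TCP1: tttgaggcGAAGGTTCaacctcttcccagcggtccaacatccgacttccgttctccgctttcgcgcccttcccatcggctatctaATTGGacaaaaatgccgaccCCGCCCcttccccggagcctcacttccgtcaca
CCT3: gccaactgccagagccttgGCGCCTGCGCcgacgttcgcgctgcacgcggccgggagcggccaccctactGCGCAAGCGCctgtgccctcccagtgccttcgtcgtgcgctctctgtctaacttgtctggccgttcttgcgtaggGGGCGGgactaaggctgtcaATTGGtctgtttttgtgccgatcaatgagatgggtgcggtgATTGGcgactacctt
CCT4: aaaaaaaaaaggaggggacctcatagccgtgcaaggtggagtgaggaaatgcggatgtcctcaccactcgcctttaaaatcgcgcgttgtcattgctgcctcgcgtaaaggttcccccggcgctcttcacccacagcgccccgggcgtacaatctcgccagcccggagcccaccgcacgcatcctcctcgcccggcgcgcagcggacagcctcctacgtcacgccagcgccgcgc

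In the TCP1 stretch the capitals mark, in order, the heat shock element letters GAANNTTC, a CCAAT box read on the opposite strand and a GC box (GGGCGG) read on the opposite strand. The CCT3 stretch held 5 matches, of the NRF1 motif, the GC box and the CCAAT box. The CCT4 stretch held 0 of the searched letters. Promoters were matched for 7 of the 8 subunits, all but CCT6A, and both strands of the 250 bases before each RefSeq start were searched. Part of these windows lay inside GENCODE exons of the same gene, among them the bases nearest the start in TCP1 and CCT8, so not every match lies upstream of every annotated start. CCAAT stood in 4 of the 7 windows (TCP1, CCT2, CCT3 and CCT8), against 32.0% of 34788 promoters. The GC box stood in the windows of the same 4 subunits, against 42.6% of all promoters. GAANNTTC stood only in the TCP1 window of the 7 (5.80% of all promoters), and the other heat shock form, TTCNNGAA, in 0 of them (6.63%). The ETS letters CCGGAAG stood only in the CCT2 window (8.50%), and the NRF1 motif in those of CCT3 and CCT5 (5.05%). The CCT5 window lay inside that gene in GENCODE, with its RefSeq start 257 bases from the start of the reference transcript. Its NRF1 match is therefore not upstream of the gene. These are matches of letters, not sites of binding. TCP1, CCT3 and CCT4 each have a protein-coding neighbour on the opposite strand, and which gene a match belongs to was not tested.

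Libraries held between 10685184 and 24246055 reads on genes (12158361 to 20670479 in siCHKA), and a subunit had between 2982 and 20382 reads in a sample. CHKA itself fell from 40.7 ± 2.55 to 2.75 ± 1.03 CPM (read counts scaled to library size, normalized by TMM; mean ± SD, n = 6 per group), a log2 fold change of -3.88 (edgeR quasi-likelihood test, Benjamini-Hochberg adjusted p = 5.89e-13). The marker levels that follow are CPM by library size alone, without TMM. Luminal prostate markers were read in every sample, with KLK3 between 1759 and 3664 CPM. The summed level of the 8 luminal markers was 3805 to 5235 CPM in siCHKA and 4735 to 6293 CPM in siNT. CD3E of T cells was at 0 CPM, and PTPRC of leukocytes and DCN of fibroblasts at no more than 0.242 and 0.287 CPM. The summed level of the 8 matched markers of other cell types (PECAM1, a ninth, had no identifier) was 31.5 to 40.8 CPM in siCHKA and 16.8 to 25.7 CPM in siNT, most of it from COL1A1 (10.5 to 32.1 CPM over all samples). The part of these markers in the results was not tested. The siCHKA libraries fell into 2 sets, replicates 1, 3 and 5 and replicates 2, 4 and 6: their counts differed by chi-square values of 12.5 to 24.9 per degree of freedom between the sets and of 2.39 to 9.50 within them. The labels give no batch for this split, so calls and values are also given by set where it changed them. Pairs of siNT libraries differed by 2.51 to 30.9 on the same measure. As these are bulk samples, fewer cells with a transcript and less of it per cell cannot be told apart.

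Loss of CHKA went with lower levels of 5 of the 8 subunits, and 0 of the 8 rose (edgeR, also 0 at an unadjusted p under 0.05 and by DESeq2). TCP1 and CCT5 fell most, followed by CCT6A, CCT7 and CCT3, while CCT2, CCT8 and CCT4 did not pass the test (edgeR, adjusted p under 0.05). Of all genes tested, 30.1% passed as lower and 32.1% as higher, so 62.2% of the tested genes differed between the groups by this rule. The median log2 fold change of the subunits was -0.15, beside 0.03 for all genes. This count depended on the scaling: with upper-quartile or library-size scaling, which raised the median of all genes by 0.146 and 0.153 on the log2 scale, 2 subunits (TCP1 and CCT5) passed as lower and 1 (CCT4) as higher. Relative to the median of all genes, the subunits' median was -0.19 under TMM and under both of these scalings. A scaling moves all genes by a like amount, so this difference could not change with it. The difference was -0.13 with siCHKA replicates 1, 3 and 5 alone, -0.24 with replicates 2, 4 and 6 alone, and -0.27 without a filter.

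**Figure D1:**
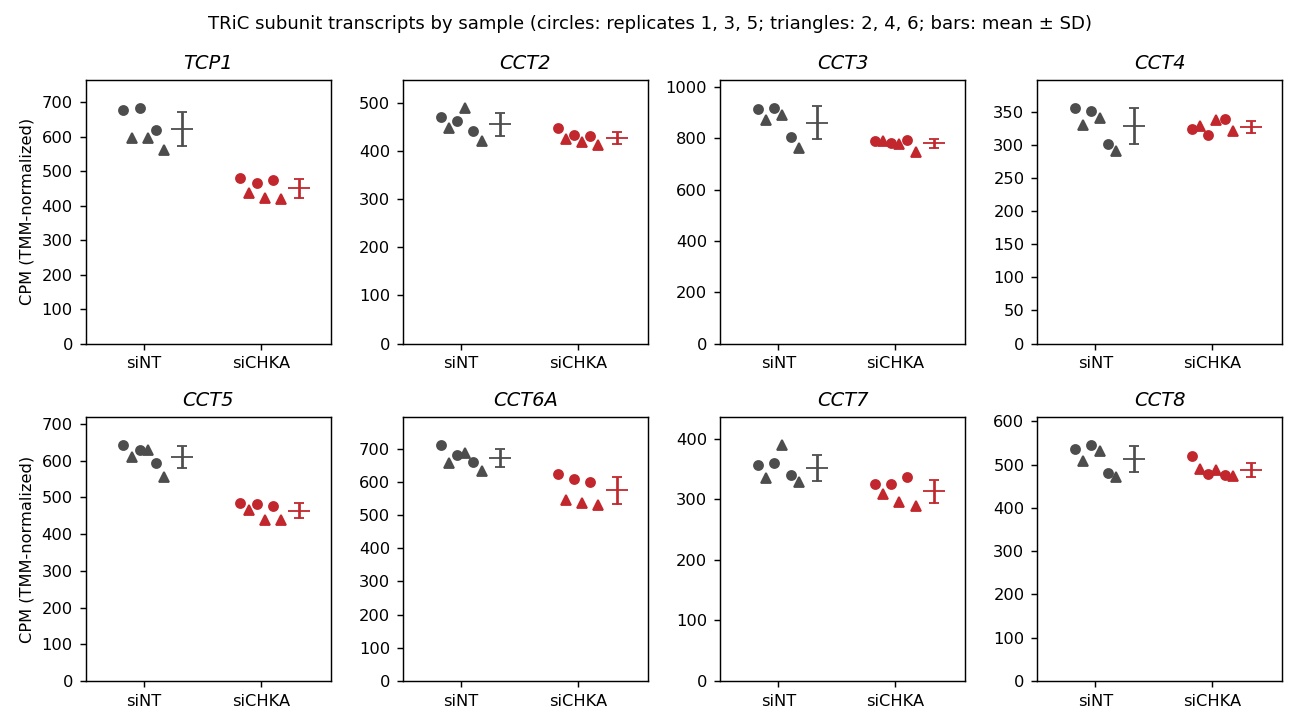
Transcript level of each TRiC subunit (CPM normalized by TMM, linear axis from 0) in the 6 siNT samples (grey) and the 6 siCHKA samples (red), with circles for replicates 1, 3 and 5, triangles for replicates 2, 4 and 6, and bars for the mean ± SD. For TCP1, CCT5 and CCT6A every siCHKA sample lies below every siNT sample, while for CCT4 the groups lie over each other.

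TCP1, the subunit that gave the complex its older name, ranged from 420 to 480 CPM in siCHKA (median 452) and from 563 to 684 CPM in siNT (median 608). The groups did not overlap, and the highest siCHKA sample stood well under the lowest siNT sample. The mean fell from 623 ± 48.1 to 450 ± 26.5 CPM (SD, n = 6), 72.3% of the siNT level, with a log2 fold change of -0.47 (SE 0.06, edgeR adjusted p = 3.05e-06). CCT5, a subunit in which inherited defects cause a sensory neuropathy, was the next in size. It ranged from 438 to 485 CPM in siCHKA (median 471) and from 557 to 642 CPM in siNT (median 619), again without overlap. Its mean fell from 610 ± 30.9 to 464 ± 21.3 CPM, 76.1% of siNT, with a log2 fold change of -0.39 (SE 0.05, edgeR adjusted p = 3.49e-06). The calls for TCP1 and CCT5 held in all 22 alternative analyses, with log2 fold changes between -0.55 and -0.32 for TCP1 and between -0.45 and -0.24 for CCT5.

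CCT6A, the zeta subunit expressed in most tissues, ranged from 532 to 625 CPM in siCHKA (median 573) and from 633 to 710 CPM in siNT (median 671). The groups did not overlap, though the highest siCHKA sample came close to the lowest siNT sample. Its log2 fold change was -0.22 (SE 0.05, edgeR adjusted p = 0.00186), and the mean stood at 85.6% of siNT. Under TMM, CCT6A, TCP1 and CCT5 were thus the 3 of 8 subunits with every siCHKA sample below every siNT sample, a pattern seen in 21.5% of all genes tested (all siCHKA above all siNT in 19.1%, of which there was no subunit, and either in 40.6%). For each of them the two-sided exact permutation p was 0.00216, the smallest that 6 against 6 samples can give. By library size alone CCT6A lost this separation: siCHKA replicate 1 (11618 of 17895611 reads) then lay above siNT replicate 6 (6504 of 10685184 reads). For CCT6A the fall did not pass under upper-quartile or library-size scaling (log2 fold changes of -0.08 and -0.07), nor with siCHKA replicates 1, 3 and 5 alone (-0.13, edgeR adjusted p = 0.0625), while replicates 2, 4 and 6 alone gave -0.33.

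For CCT7, the eta subunit, levels were 288 to 336 CPM in siCHKA (median 317) and 328 to 389 CPM in siNT (median 349), and 5 of the 6 siCHKA samples were below every siNT sample. Its log2 fold change was -0.17 (SE 0.06, edgeR adjusted p = 0.0150, exact permutation p = 0.00649). Under upper-quartile and library-size scaling this became -0.02 and -0.01 and did not pass, and with siCHKA replicates 1, 3 and 5 alone it was -0.09 and did not pass (edgeR adjusted p = 0.227). CCT3, the gamma subunit, had the highest level of the 8. It ranged from 746 to 793 CPM in siCHKA (median 786) and from 760 to 918 CPM in siNT (median 881), and the groups overlapped: siNT replicates 5 and 6 lay at 804 and 760 CPM, close to the siCHKA samples. The log2 fold change of CCT3 was -0.14 (SE 0.05, edgeR adjusted p = 0.0317, exact permutation p = 0.0325), and its sign turned under upper-quartile (0.00) and library-size scaling (0.01). The CCT3 call was also lost without siCHKA replicate 6 or without siNT replicate 1, 2 or 3, where the edgeR adjusted p lay between 0.0523 and 0.0706, and with siCHKA replicates 1, 3 and 5 alone (-0.12, edgeR adjusted p = 0.138).

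CCT2, the beta subunit, stood at 412 to 448 CPM in siCHKA (median 428) and 421 to 490 CPM in siNT (median 456), and 2 of the 6 siCHKA samples were below every siNT sample. The log2 fold change was -0.09 (95% interval -0.19 to 0.01, edgeR adjusted p = 0.109), while the exact permutation test of the single gene gave p = 0.0346. Without siNT replicate 6, the smallest library, CCT2 passed (-0.12, edgeR adjusted p = 0.0445), as it did by DESeq2 (-0.10, adjusted p = 0.0383), and its sign turned under upper-quartile (0.05) and library-size scaling (0.06). CCT8, the theta subunit, had levels of 474 to 519 CPM in siCHKA (median 483) and 473 to 545 CPM in siNT (median 521), and the groups overlapped. Its log2 fold change was -0.07 (95% interval -0.18 to 0.03, edgeR adjusted p = 0.228), with the sign turned under the same pair of scalings (0.07 and 0.08).

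Of the 8 subunits, CCT4, the delta subunit, moved least. Its levels were 315 to 339 CPM in siCHKA (median 326) and 290 to 356 CPM in siNT (median 336). All 6 siCHKA samples lay inside the siNT range, whose low end was made by siNT replicates 5 and 6 (302 and 290 CPM). The mean was 327 ± 9.24 CPM in siCHKA and 328 ± 26.8 CPM in siNT, with a 95% interval of the log2 fold change from -0.12 to 0.11 (edgeR adjusted p = 0.949), so a change of the size seen for TCP1 or CCT5 lay outside that interval. CCT4 passed as higher under upper-quartile scaling (0.14, edgeR adjusted p = 0.0349) and library-size scaling (0.15, edgeR adjusted p = 0.0178).

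**Figure D2:**
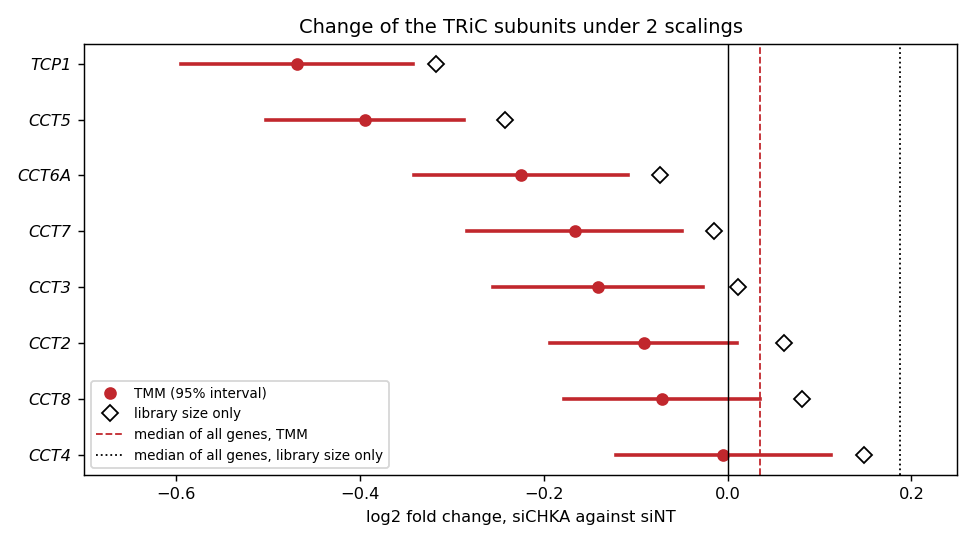
Log2 fold change of each TRiC subunit, siCHKA against siNT, with TMM normalization (red points, lines for the 95% interval) and with library-size scaling alone (open diamonds), beside the median of all genes under each. Library-size scaling moves all 8 subunits to the right by a like amount and leaves TCP1 and CCT5 furthest to the left, at -0.32 and -0.24.

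Summed over the 8 subunits, TRiC transcripts made 3825 ± 138 CPM in siCHKA (3631 to 3996) and 4412 ± 251 CPM in siNT (4025 to 4664). The siCHKA sum was 86.7% of the siNT sum, and under TMM the groups did not overlap. By library size alone they did overlap: siCHKA replicate 1 (74286 of 17895611 reads) then stood above siNT replicate 6 (41347 of 10685184 reads). The lowest siNT sum was that of replicate 6, which had the lowest level of all 8 subunits among the siNT samples. On the log2 scale the ratio of the sums was -0.21, and -0.06 and -0.05 under upper-quartile and library-size scaling.

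The samples of each group did not all carry the same amount. Within siCHKA the sum averaged 3938 CPM in replicates 1, 3 and 5 (3893 to 3996) and 3711 CPM in replicates 2, 4 and 6 (3631 to 3792). For 5 subunits (TCP1, CCT2, CCT5, CCT6A and CCT7) the first set stood wholly above the second, and for CCT3, CCT4 and CCT8 the sets overlapped; of all genes tested, 47.5% had sets that did not overlap. The widest gap was that of CCT6A, at 598 to 625 CPM against 532 to 547 CPM. TCP1 stood at 466 to 480 CPM in replicates 1, 3 and 5 and at 420 to 438 CPM in replicates 2, 4 and 6, both below its siNT range. Set against the 6 siNT samples, replicates 2, 4 and 6 gave 5 subunits as lower, and replicates 1, 3 and 5 gave 2, TCP1 and CCT5.

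The make-up of the TRiC transcript pool differed between the groups. The share of each subunit was taken in the summed level per kilobase of exon (union of all annotated exons), a measure that does not depend on how the libraries are scaled. TCP1 made up 11.4 ± 0.53% of the pool in siNT and 9.39 ± 0.26% in siCHKA, and CCT5 9.72 ± 0.12% and 8.38 ± 0.16% (SD, n = 6). CCT4 went the other way, from 10.9 ± 0.30% in siNT to 12.4 ± 0.53% in siCHKA, as did CCT8 from 13.8 ± 0.18% to 14.9 ± 0.46% and CCT2 from 9.69 ± 0.25% to 10.3 ± 0.10%. In these 5 subunits the shares of the 2 groups did not overlap, while those of CCT3 (19.97% and 20.6%), CCT6A (15.7% and 15.2%) and CCT7 (8.81% and 8.89%) did. Shares sum to 100%, so the fall of 1 subunit raises the others, and they are given as a description with no test. With the longest coding transcript as the length, the same 5 shares did not overlap and moved in the same directions.

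**Figure D3:**
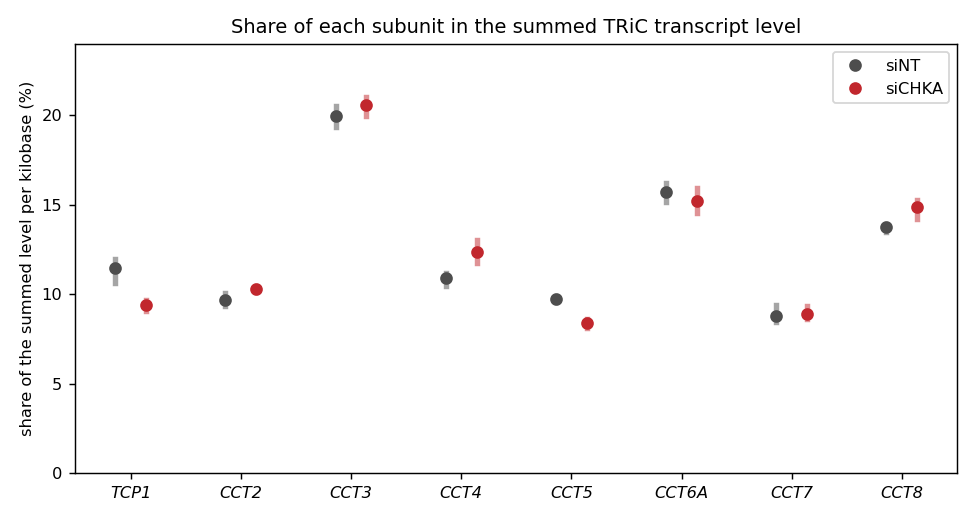
Share of each subunit (%, axis from 0) in the summed TRiC transcript level per kilobase of exon, with points for the mean of 6 samples and bars from the lowest to the highest sample, siNT in grey and siCHKA in red. TCP1 and CCT5 are lower and CCT4, CCT8 and CCT2 higher in siCHKA without overlap.

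In the siNT samples the order of the levels per kilobase of exon was CCT3 (223 CPM per kilobase), CCT6A (175), CCT8 (153), TCP1 (128), CCT4 (122), CCT5 (108), CCT2 (108) and CCT7 (98.0). The first 3 stood clear of their next neighbour in every sample, while from TCP1 downward the ranges of each pair of neighbours overlapped. The order rests on the length used: by the longest coding transcript CCT3 was still first (435 CPM per kilobase), but CCT4 was last (138). CCT3 stood above the other 7 in every siNT sample under either length.

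Within siNT, subunit levels rose and fell together from sample to sample. Over the 28 pairs of subunits, Pearson's r of log2 CPM across the 6 samples had a median of 0.85 (0.35 to 0.99) and Spearman's rho a median of 0.83, and r was above 0 in 28 of 28 pairs. Over all pairs of the 9629 genes that averaged 10 CPM or more the median r was 0.01, and 4.10% of those pairs had an r above the subunits' median. These genes were not matched for level to the subunits, which stood at 290 to 918 CPM in siNT. How the subunits compare with pairs of genes of like level was not tested. CCT3 with CCT4 was the closest pair (0.99) and TCP1 with CCT7 the loosest (0.35). The pattern rested in part on siNT replicates 6 and 5, the samples farthest from the median of the summed level: without them the median r was 0.71 over 4 samples, with 26 of 28 pairs above 0. The points share their libraries and depth, and the correlations are a description. Across the 6 siCHKA samples the median r was 0.70 (-0.23 to 0.98) and the median rho 0.54, r was above 0 in 24 of 28 pairs, and 18.1% of all pairs had an r above that median. There CCT4 had a median r of -0.07 with the other 7 subunits (0.89 in siNT) and CCT8 of 0.42 (0.86 in siNT). Since the siCHKA samples fell into 2 sets, between which 5 subunits did not overlap, these values mix the difference between the sets with that within them, and the difference between the groups in r was not tested.

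**Figure D4:**
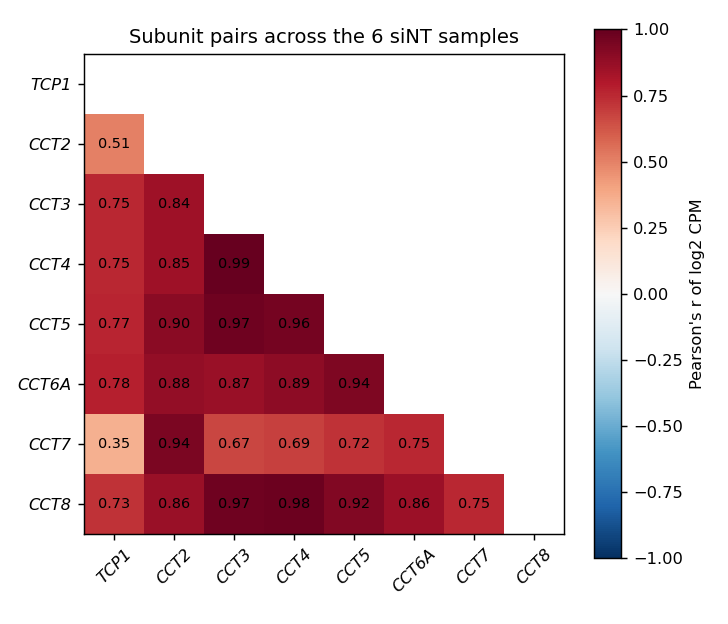
Pearson's r of log2 CPM for each of the 28 pairs of TRiC subunits across the 6 siNT samples, from blue (-1) to red (1). Every pair is above 0, from 0.35 for TCP1 with CCT7 to 0.99 for CCT3 with CCT4.

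Across all 12 samples, the genes most like the mean subunit profile (mean z-score of the 8, 9621 genes searched) were TXN2, a mitochondrial thioredoxin (r = 0.97), CAPZA1, a subunit of the actin capping protein (0.96), ERGIC2, a protein of the compartment between ER and Golgi (0.96), CNOT7, a deadenylase (0.96), and MPZL1, a membrane glycoprotein (0.96). These values hold the difference between the groups and that between the siCHKA sets. With the group means removed, r lay between 0.90 and 0.97, the siCHKA sets included. Their log2 fold changes lay between -0.27 and -0.15 (TXN2 turned to 0.00 under library-size scaling), given as a description since the same samples chose these genes.

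Of the 6 subunits of prefoldin, which delivers clients to TRiC, 3 fell and 2 rose, beside 30.1% and 32.1% of all genes, so calls in both directions were also usual among all genes. PFDN1 fell from 60.8 ± 4.32 to 47.2 ± 3.39 CPM (log2 fold change -0.36) and PFDN2 from 83.0 ± 4.72 to 67.4 ± 3.69 CPM (-0.30), both without overlap between the groups. Of all genes tested, 21.5% had all siCHKA below all siNT samples and 19.1% had all siCHKA above them. VBP1, the third to fall, changed by -0.16, and did not pass under upper-quartile (-0.01) or library-size scaling (-0.00), with siCHKA replicates 2, 4 and 6 alone (-0.15, edgeR adjusted p = 0.0681) or without siCHKA replicate 6 (-0.14, edgeR adjusted p = 0.0538). PFDN5 rose from 156 ± 17.1 to 202 ± 22.9 CPM (0.37), without overlap (0.23 and 0.49 in the first and second siCHKA set against siNT), and PFDN6 from 63.7 ± 3.33 to 73.0 ± 3.53 CPM (0.20). PFDN4 did not pass (0.01, 95% interval -0.25 to 0.27). The median of the 6 was -0.07, beside 0.03 for all genes, and turned to 0.07 and 0.08 under upper-quartile and library-size scaling.

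Of the 3 phosducin-like cochaperones, 0 passed in either direction by edgeR, at an unadjusted p under 0.05 or by DESeq2: PDCL had a log2 fold change of -0.14 (95% interval -0.29 to 0.01), TXNDC9 of -0.12 (-0.33 to 0.08) and PDCL3 of 0.05 (-0.09 to 0.19). Some alternatives did give calls: PDCL3 passed as higher under upper-quartile (0.19, edgeR adjusted p = 0.0126) and library-size scaling (0.20, edgeR adjusted p = 0.0120). PDCL passed as lower without siNT replicate 1 or 3 (-0.18 and -0.19, edgeR adjusted p = 0.0405 and 0.0297) and with siCHKA replicates 2, 4 and 6 alone (-0.22, edgeR adjusted p = 0.0331), and TXNDC9 with siCHKA replicates 1, 3 and 5 alone (-0.30, edgeR adjusted p = 0.0114). Of the 5 tubulin folding cofactors measured (TBCE had no identifier), TBCD and TBCA fell by 0.26 and 0.18 on the log2 scale, and ARL2 and TBCB rose by 0.26 and 0.25. TBCA did not pass under upper-quartile (-0.03) or library-size scaling (-0.02), nor with siCHKA replicates 2, 4 and 6 alone (-0.14, edgeR adjusted p = 0.115). Under each of these scalings the list of cofactors had 1 lower and 3 higher members. Beside the counts of every list in this paragraph, 30.1% of all genes tested passed as lower and 32.1% as higher. The prefoldin-like and R2TP complex, which assembles RNA polymerases and kinase complexes, had 3 of 7 members lower and 0 higher by edgeR (0 also at an unadjusted p under 0.05 and by DESeq2), with a median of -0.09 that turned to 0.05 and 0.06 under upper-quartile and library-size scaling, where 2 were lower and 2 higher. URI1, a prefoldin-like scaffold, fell from 178 ± 12.03 to 45.6 ± 4.79 CPM (-1.96), the lowest fold change among all the partner and client lists, and RPAP3 fell from 67.7 ± 2.95 to 51.3 ± 2.78 CPM (-0.40). The other chaperonin of the cell, in mitochondria, had its ring subunit HSPD1 lower (2028 ± 81.8 to 1646 ± 131 CPM, -0.30, with -0.20 and -0.41 by siCHKA set) and its cochaperonin HSPE1 not past the test (-0.06, 95% interval -0.17 to 0.05). Of the heat shock factors, HSF2 passed as lower (-0.16) and HSF1 did not pass (0.04), but under upper-quartile and library-size scaling HSF2 did not pass (-0.01 and -0.00) and the pair had 0 lower and 1 higher.

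**Figure D5:**
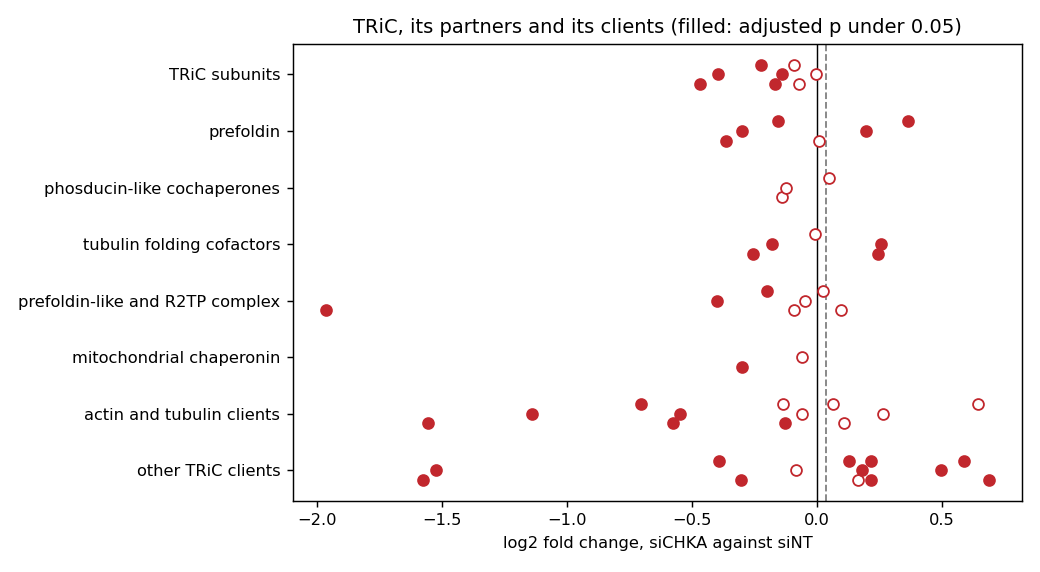
Log2 fold change of single genes, siCHKA against siNT under TMM normalization, in the TRiC subunits, their partners and their clients, filled where the edgeR adjusted p was under 0.05. The subunits lie between -0.47 and 0.00, prefoldin lies on both sides of 0, and URI1 stands furthest to the left at -1.96. The dashed line is the median of all genes, 0.03.

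Clients of TRiC did not move as 1 group either. Of the 12 actin and tubulin genes tested, 6 fell and 0 rose by edgeR and by DESeq2 (1 was higher at an unadjusted p under 0.05), beside 30.1% lower and 32.1% higher among all genes. Their median was -0.13 and turned to 0.01 and 0.02 under upper-quartile and library-size scaling, where 5 were lower and 3 higher. By siCHKA set, replicates 1, 3 and 5 gave 5 lower and 2 higher with a median of -0.00, and replicates 2, 4 and 6 gave 8 lower and 0 higher with a median of -0.29. TUBA1B fell from 115 ± 9.56 to 39.05 ± 3.49 CPM (log2 fold change -1.55), TUBA1C from 65.9 ± 3.41 to 30.0 ± 3.42 CPM (-1.14) and TUBB from 1543 ± 93.3 to 1057 ± 220.0 CPM (-0.55). In each of the 3 all siCHKA samples lay below all siNT samples, as in 21.5% of all genes tested. TUBB differed between the siCHKA sets, with a log2 fold change of -0.29 in replicates 1, 3 and 5 and of -0.85 in replicates 2, 4 and 6. ACTG1 passed narrowly (-0.13, edgeR adjusted p = 0.0469, 0.02 under both other scalings) and lost the call without siCHKA replicate 2, 3, 4 or 6 or siNT replicate 2, 4 or 6, where its log2 fold change lay between -0.14 and -0.10. ACTB, the most abundant at 2931 ± 83.1 CPM in siNT, did not pass (0.06, 95% interval -0.09 to 0.22). It passed as higher under upper-quartile (0.21, edgeR adjusted p = 0.0157) and library-size scaling (0.21, edgeR adjusted p = 0.0107) and with siCHKA replicates 1, 3 and 5 alone (0.23, edgeR adjusted p = 0.00285), while replicates 2, 4 and 6 gave -0.12. Actin and tubulin genes share stretches of sequence, and reads that fit several genes were not counted, so their values are less sure. Among 13 other clients 4 fell, about the share of all genes, and 7 rose. Their median was 0.17, 0.31 and 0.32 under upper-quartile and library-size scaling, and 0.24 and 0.01 in the first and second siCHKA set. CDC20, an activator of the anaphase-promoting complex, fell from 190 ± 12.4 to 63.9 ± 3.17 CPM (-1.57), and PLK1, a mitotic kinase, from 165 ± 8.71 to 57.3 ± 3.04 CPM (-1.52). CCNE1, the G1/S cyclin, rose from 14.5 ± 1.46 to 23.4 ± 2.58 CPM (0.69) and MLST8, a WD40 subunit of the mTOR complexes, from 55.9 ± 5.08 to 79.1 ± 6.72 CPM (0.50).

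Several features of the genes bear on how well they were read. Of the 40-base windows of the reference transcript, 20% of CCT8, 16.0% of TCP1 and 10.3% of CCT6A had an identical copy elsewhere in the genome, against 4.36% or less in the other 5 subunits and 0% in CCT3. The files list 14 pseudogenes of the subunits, and the most read of them, CCT6P3, had at most 157 counts in a sample. CCT6B, a paralog of CCT6A known from testis, was read at 17 to 94 counts and rose (log2 fold change 1.04, edgeR adjusted p = 0.000143), at 3.53 ± 0.88 CPM in siCHKA against 574 ± 41.1 CPM for CCT6A. CCT8L2 had 0 counts in every sample, which allows up to 3 counts, or 0.124 to 0.281 CPM by library. TCP1 shares 454 exonic bases with ACAT2 on the opposite strand, and whether counting used strand is not stated. ACAT2 fell as well, from 58.7 ± 6.85 to 44.6 ± 5.10 CPM (-0.40), a level small beside that of TCP1, and its part in the TCP1 value was not tested. Exons of long noncoding RNA genes on the opposite strand also overlap those of CCT5 (1734 bases), CCT4 (275 and 181) and CCT8 (85). Their part in the counts of these subunits was not tested either.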

How the data were processed

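Total RNA of 12 C4-2 samples was made into TruSeq libraries and read as single-end reads of 40 bases. The authors aligned to GRCh37 with TopHat2 2.0.4, counted reads on Ensembl genes with HTSeq 0.5.3p9 and deposited raw counts, in 4 files per sample, which were summed. Reads with several alignments (26.1% to 30.6%) or on several genes (2.82% to 2.93%) were not assigned, and rows that name no gene were left out. Of the identifiers, 82.8% were matched to GENCODE release 44. Depth was 10685184 to 24246055 reads on genes, and 3 counts correspond to 0.124 to 0.281 CPM. The bound of 3 counts for a gene with 0 counts covers counting error only. The 95% intervals of log2 fold changes come from the edgeR fit and include the spread between samples.

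Counts were tested with edgeR 4.0.16 (R 4.3.3): filterByExpr, TMM, quasi-likelihood test, Benjamini-Hochberg adjusted p under 0.05. CPM are normalized by TMM, and a prior count of 2 was added for log2 CPM. Levels of the cell type markers and the CPM given for 3 counts were scaled to library size alone. Single genes were also compared by two-sided exact permutation of log2 CPM (scipy 1.17.1). DESeq2 1.42.0, other scalings and filters, the replicate number as a block, each sample left out, each siCHKA set and the first file alone were alternatives. On simulated counts for this comparison (14367 genes, 200 changed), 22.0% of 1.2-fold, 83.3% of 1.5-fold, 93.9% of 2-fold and all 3-fold changes were recovered, with 9 false calls.

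Groups and replicate numbers came from the labels, which do not say that samples of a group were separate cultures, so p-values measure the spread between these samples. The subunits and lists were chosen with earlier results of these data known. Genes named were the 8 subunits, CHKA, all of prefoldin, the phosducin-like proteins and the mitochondrial chaperonin, up to 2 lower and 2 higher genes with the smallest p in each other list, ACTB, ACTG1, TUBB, TUBA1B, genes with exons overlapping a subunit, and the 5 genes most like the subunits' mean profile. PECAM1, TBCE, HSF1, CD3E, PTPRC, DCN, COL1A1, KLK3 and CCT8L2 were named as members of lists outside this rule. Upstream sequences came from RefSeq (GRCh38.p14) and were shortened to leave out annotated exons of the gene, and in TCP1 also bases at the far end of the window.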

Additional observations from a re-analysis of the deposited data

Results flagged for a closer look

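In the 6 siCHKA samples, replicate 6 lay apart for CCT3, at 746 CPM against 777 to 793 CPM in the other 5: its gap to the nearest sample was 0.661 of the whole range on the log2 scale. For CCT8, siCHKA replicate 1 lay apart at 519 CPM against 474 to 490 CPM, with a gap of 0.634 of the range. Both exceed the 95% critical value of Dixon's test for 6 samples. Over the 18 groups of values examined, chance gives about 1 such case in 20, or 0.9, so a pair of them is near what chance gives. Neither was explained further, and CCT3 without replicate 6 no longer passed (log2 fold change -0.13, edgeR adjusted p = 0.0706).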

How the results depend on the processing

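The 22 alternatives changed the scaling, the filter, the test, the samples or the files. Upper-quartile and library-size scaling mattered most, since they raised the median of all genes by 0.146 and 0.153 on the log2 scale and moved the split of changed genes from 4371 lower and 4650 higher to 3052 and 6609, and 2995 and 6666. Under them, in this order, the lower subunits numbered 2 and 2 and the higher ones 1 and 1, their median log2 fold change was -0.0084 and -0.0014, and the log2 ratio of the summed level was -0.061 and -0.054. Signs turned for CCT2 (0.054, 0.061), CCT3 (0.0044, 0.012), CCT4 (0.14, 0.15), CCT8 (0.074, 0.081), PDCL (0.0052, 0.011), TXNDC9 (0.023, 0.032), HSPE1 (0.085, 0.093), ACTG1 (0.018, 0.024) and, with library size alone, TXN2 (0.00018). They also turned for the medians of prefoldin (0.073, 0.082), the phosducin-like proteins (0.023, 0.032), actins and tubulins (0.013, 0.019), the tubulin folding cofactors (0.138, 0.145), the R2TP list (0.053, 0.059) and the heat shock factors (0.085, 0.092). With siCHKA replicates 1, 3 and 5 only, 2 subunits passed as lower and PFDN4 turned to -0.19. With replicates 2, 4 and 6 only, PDCL3 turned to -0.0037, TXNDC9 to 0.025 and ACTB to -0.12. CCT4 and PFDN4, both near 0, also turned with at least 10 counts in every sample (CCT4, 0.021), without a filter (PFDN4, -0.020) and in the first file alone (0.019 and -0.0079). Leaving out each sample gave 4 to 6 lower subunits, a median of -0.18 to -0.14, a summed log2 ratio of -0.24 to -0.19, and ranges of -0.042 to 0.010 for CCT4 and -0.063 to 0.057 for PFDN4. CCT3 also lost its call with the 10-count filter (edgeR adjusted p = 0.0679) and in the first file (0.137). Apart from the scalings, the cause of these changes was not tested.

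In a fit with a replicate block, 4 subunits passed as lower (CCT3 had an edgeR adjusted p of 0.0523), with 4273 genes lower and 4494 higher. The numbers did not pair the samples: deviations of same-numbered samples correlated between -0.51 and 0.58, over 0.1 in 2 of 6 pairs, and 1 of 6 samples correlated best with its own number. Of simulated 1.2-fold changes 22.0% were recovered at this depth and number of samples. The simulation changed 200 genes, drawn at any level, and tested 14367, while 62.2% of genes passed in the data. Its adjusted p was therefore stricter, and the 22.0% is not the recovery rate for the subunits. CCT3 (-0.14), CCT7 (-0.17) and CCT6A (-0.22) passed with changes smaller than 1.2-fold. Changes of the size seen for CCT2, CCT8 and CCT4 can still be missed.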
